A study of Mus musculus with 4 samples.

Results

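The transcription factors that drive or restrain adipocyte formation were followed in mouse bone marrow stromal cells with and without Cre-mediated deletion of Setd2. The 10 genes were Pparg, Cebpa, Cebpb, Cebpd, Zfp423, Klf4, Klf15, Ebf1, Ebf2 and Gata2. They were taken as the rows of the deposited count table that carry these symbols, and 10 of 10 were found among 44788 genes. The cells came from Setd2 fl/fl mice of strain C57BL/6J, whose Setd2 alleles carry loxP sites in every group, and were used at passage 2. The Cre libraries (n = 2) are from cells that received a lentivirus with Cre recombinase, which excises the floxed part of the gene. The GFP libraries (n = 2) are from cells that received a lentivirus with GFP as the control. Puromycin at 2 µg/ml was given to both groups, over 4 days, to select cells that carried the virus. Without a Cre control on unfloxed cells, loss of Setd2 and the presence of Cre cannot be told apart. No label tells whether replicate libraries stem from different cultures or animals. The p-values therefore measure the spread between these 4 libraries alone, which may be technical.

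Stromal cells of the marrow can become osteoblasts or adipocytes, and the adipocyte branch is run by a cascade of transcription factors. C/EBP beta and C/EBP delta act early and turn on Pparg and Cebpa, whose products then maintain each other and switch on the genes of the lipid-storing cell. Commitment factors such as ZFP423 and the early B cell factors EBF1 and EBF2 act upstream of Pparg, while GATA2 holds preadipocytes back. SETD2, the enzyme whose gene is floxed, is the main enzyme that trimethylates histone H3 at lysine 36, a mark laid down along transcribed genes.

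None of the 10 adipogenic factors passed the test between Cre and GFP libraries. With edgeR's quasi-likelihood test at an adjusted p of 0.05, 0 of 10 were called, where 6.97% of all 14483 tested genes were called. For a list of 10 genes, 0 is near that share. At an unadjusted p under 0.05 there was 1, Zfp423, where 20.9% of all tested genes lay. DESeq2 called 0 of the 6 for which it gave an adjusted p, where it called 4.16% of the 9148 genes with an adjusted p. By direction, 0 of 10 rose and 0 of 10 fell, against 3.74% and 3.22% of all tested genes. A log2 fold change of at least 1 in size was seen in 0 of 10 and in 0.870% of all tested genes. The log2 fold changes of Cre over GFP lay between -0.60 (Zfp423) and 0.07 (Gata2) with a median of -0.12, against a median of 0.00 over all tested genes. Their median absolute size was 0.12, the same as over all tested genes.

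Most of these differences pointed downwards. The fitted change was below 0 for 8 of 10 factors, and for 51.1% of all tested genes. In 6 of 10, Pparg, Cebpd, Zfp423, Klf4, Klf15 and Ebf1, both Cre libraries lay below both GFP libraries, which held for 25.5% of all tested genes. In none did both Cre libraries lie above, where the share of all tested genes was 24.5%. With scaling by library size alone the numbers were 5 below (18.3% of all tested genes) and 1 above (28.4%). The factors share their 4 libraries and are not independent of each other, so these counts describe the list and were not tested.

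Library totals lay between 14311924 and 14315903 counts with Cre and between 12371994 and 12806928 with GFP. A count of 3, taken as the floor, equals from 0.207 to 0.255 CPM (counts per TMM-scaled library total). Setd2 itself had 551 and 468 counts in the Cre libraries, against 1400 and 1250 in the GFP libraries (log2 fold change -1.60, adjusted p = 3.65e-15). GFP replicate 2 stood apart by its ribosomal RNA: the share of Rn18s-rs5 was 7.45% there and between 1.21% and 2.07% in the other libraries. With GFP replicate 2 left out, edgeR called 0 genes of the whole table (2197 at an unadjusted p under 0.05), and with GFP replicate 1 left out it called 12. Setd2 itself kept a log2 fold change of -1.59 in both cases, with an adjusted p of 0.124 and of 0.0417. Of 26 called genes in the lists around the 10 factors, 0 were still called with either GFP library left out.

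**Figure D1:**
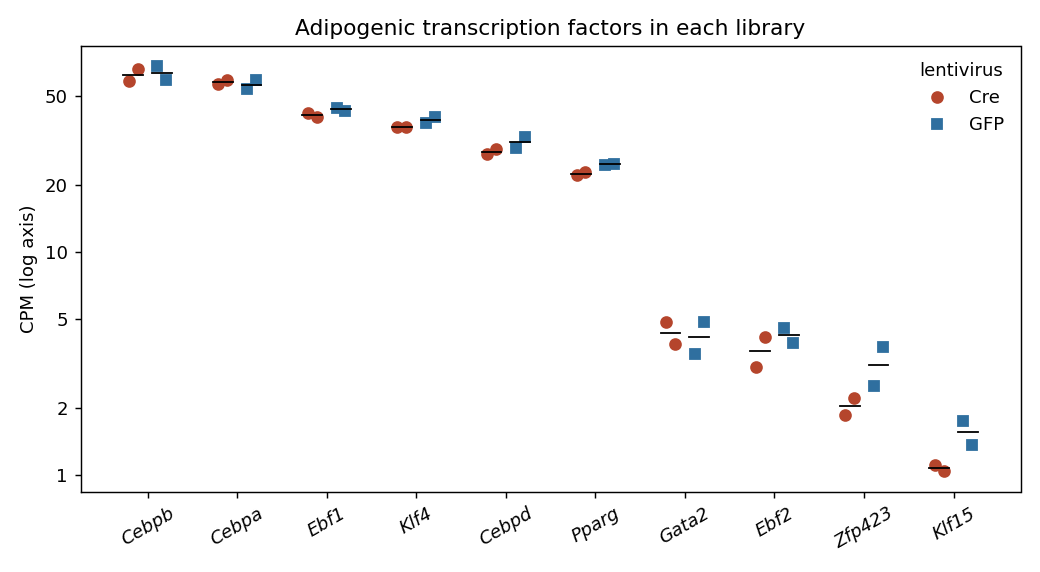
CPM of each adipogenic factor in the 2 Cre libraries (circles) and the 2 GFP libraries (squares), on a log axis, with black bars at the group means. Cebpb, at 62.0 CPM with Cre and 63.5 CPM with GFP, is the highest and Klf15, at 1.07 and 1.56 CPM, the lowest.

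Among the early factors, Cebpb, on chromosome 2 from 167688915 to 167690432 (RefSeq, GRCm38.p6), encodes a basic leucine zipper protein that is induced at the start of differentiation. It had 841 and 953 counts in the Cre libraries, against 892 and 694 in the GFP libraries. In normalized units this was 62.0 ± 5.42 CPM with Cre and 63.5 ± 6.22 CPM with GFP (mean ± SD, n = 2 each). The groups overlapped, the lowest and the highest of the 4 values being 58.2 and 67.9 CPM. The log2 fold change was -0.04 with a standard error of 0.08 (adjusted p = 0.848). Its 95% interval runs from 0.872-fold to 1.09-fold. In GENCODE M21, 20.7% of the exon bases of Cebpb lie over Tmem189 on the opposite strand, a gene with 74.6 CPM in the Cre and 65.7 CPM in the GFP libraries. The strand setting of the counting is unknown, so the count of Cebpb is uncertain to that extent.

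Cebpd, the second early C/EBP gene, lies on chromosome 16 from 15887286 to 15889545. It had 27.4 and 28.8 CPM in the Cre libraries, against 29.3 and 32.6 CPM in the GFP libraries. Both Cre values were lower, by less than the gap between the GFP libraries. This came to -0.14 on the log2 scale (standard error 0.09, adjusted p = 0.413). Exons of Spidr on the opposite strand, with 21.2 CPM in Cre and 22.7 CPM in GFP libraries, lie over 15% of its exon bases.

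Klf4, a zinc finger factor that in the mouse preadipocyte line 3T3-L1 helps to induce Cebpb, lies on chromosome 4 from 55527137 to 55532475. It stood at 36.2 and 36.1 CPM in the Cre libraries and at 37.7 and 40.4 CPM in the GFP libraries. The Cre libraries were nearly identical and lay just under the lower GFP library. Its log2 fold change was -0.11 with a standard error of 0.08 (adjusted p = 0.486).

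Zfp423, a zinc finger gene whose product marks cells committed to become preadipocytes, showed the most negative value of the 10. It lies on the minus strand of chromosome 8 from 87661810 to 87962053. Its counts were 27 and 32 in the Cre libraries, against 33 and 44 in the GFP libraries, or 1.87 and 2.21 CPM against 2.51 and 3.75 CPM. All Cre values were below all GFP values, but the GFP libraries differed from each other (0.58 on the log2 scale) by about as much as the groups did. The fitted log2 fold change was -0.60 with a standard error of 0.26, an unadjusted p of 0.0273 and an adjusted p of 0.170. The 95% interval, not adjusted for the number of genes, runs from 0.457-fold to 0.951-fold. By its p-value Zfp423 ranked 2325 of 14483 genes. Over 13 alternative settings its adjusted p lay between 0.137 and 0.657, with none given in DESeq2. Its log2 fold change was -0.30 without GFP replicate 2 and -0.87 without GFP replicate 1.

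Ebf1 and Ebf2 encode DNA-binding factors of stromal progenitors, and Ebf1 is also a B cell factor. Ebf1, on chromosome 11 from 44618100 to 45008096, had 41.9 and 40.4 CPM in the Cre libraries, against 44.2 and 42.7 CPM in the GFP libraries. The groups were apart by less than 1 CPM at their nearest values, and with scaling by library size alone they overlapped. The log2 fold change was -0.08 with a standard error of 0.08 (adjusted p = 0.623). Ebf2, on chromosome 14 from 67233292 to 67430952, was far less abundant. It had 44 and 60 counts with Cre and 60 and 46 counts with GFP, so the groups overlapped (log2 fold change -0.24, standard error 0.21, adjusted p = 0.559).

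Pparg encodes the nuclear receptor without which adipocytes do not form, and it lies on chromosome 6 from 115360879 to 115490404. It had 318 and 332 counts in the Cre libraries, against 323 and 291 in the GFP libraries. Scaled for depth these were 22.0 and 22.9 CPM with Cre, and 24.6 and 24.8 CPM with GFP. Both Cre libraries lay below both GFP libraries, and the 2 GFP values differed by only 0.01 on the log2 scale. The log2 fold change was -0.13 with a standard error of 0.09 (adjusted p = 0.453), and the 95% interval runs from 0.796-fold to 1.04-fold. Over 13 alternative settings the log2 fold change stayed between -0.17 and -0.10 and the adjusted p between 0.446 and 0.792.

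The Pparg count adds up transcripts from separate start sites, so it cannot tell the widely expressed gamma 1 form from the adipocyte form gamma 2. Their starts are shown because they differ in sequence. Of the 3 Pparg starts in the RefSeq table (GRCm38.p6, plus strand), the first lies at chr6:115360894-115361193, counting from 250 bases before to 50 after the start. The start of the adipocyte form, at chr6:115421816-115422115, is 60922 bases further on. Upstream of Zfp423, the window at chr8:87959546-87959845 on the minus strand is given beside them, since it is the other window with a match to the C/EBP letters. Capitals mark the CCAAT box (CCAAT), the TATA box (TATAAA) and the C/EBP letters (TTGCNNAA), each searched on both strands. No match overlaps another.
Pparg first start: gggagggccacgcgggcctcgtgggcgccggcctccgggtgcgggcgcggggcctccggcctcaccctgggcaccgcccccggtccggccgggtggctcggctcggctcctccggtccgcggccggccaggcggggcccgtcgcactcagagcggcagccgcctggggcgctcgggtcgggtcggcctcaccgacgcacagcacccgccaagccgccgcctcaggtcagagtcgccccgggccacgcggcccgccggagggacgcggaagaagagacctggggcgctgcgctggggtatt
Pparg adipocyte-form start: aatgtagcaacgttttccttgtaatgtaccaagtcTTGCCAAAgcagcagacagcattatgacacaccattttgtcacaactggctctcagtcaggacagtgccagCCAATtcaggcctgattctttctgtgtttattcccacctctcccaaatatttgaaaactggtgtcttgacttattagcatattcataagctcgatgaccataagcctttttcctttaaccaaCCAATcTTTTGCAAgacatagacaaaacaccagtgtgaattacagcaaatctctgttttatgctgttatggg
Zfp423 start: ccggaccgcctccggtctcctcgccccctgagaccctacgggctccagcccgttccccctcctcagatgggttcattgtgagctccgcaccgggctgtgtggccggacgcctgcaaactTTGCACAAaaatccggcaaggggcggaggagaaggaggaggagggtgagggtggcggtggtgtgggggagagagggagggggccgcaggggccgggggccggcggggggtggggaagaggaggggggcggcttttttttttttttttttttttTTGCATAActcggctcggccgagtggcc
The first Pparg window is 80.3% G and C and holds none of these letters. The Pparg window not printed, at chr6:115362099-115362398, starts 1205 bases after the first. It is 62.7% G and C and holds 1 CCAAT and 1 TATA match, so CCAAT letters are not confined to the adipocyte-form start. The adipocyte-form window is 40.3% G and C, against a median of 52.7% over 32851 promoter windows, and holds 2 CCAAT and 2 C/EBP matches. Of all windows, 37.4% hold the CCAAT box, 13.6% hold the TATA box and 10.8% hold the C/EBP letters. In all, 8 of the 10 factors had entries in the table, with 13 windows. A match to the C/EBP letters was found in 2 of the 13, the CCAAT box in 4 and the TATA box in 3. A match is a stretch of letters and was not tested as a binding site.

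Cebpa, the partner of Pparg in the mature adipocyte, lies on chromosome 7 from 35119293 to 35121928. It had 813 and 854 counts in the Cre libraries, against 702 and 693 in the GFP libraries, which scaled to 56.3 and 59.0 CPM against 53.4 and 59.0 CPM. The groups overlapped. With a log2 fold change of 0.04 and a standard error of 0.08 (adjusted p = 0.829), its 95% interval runs from 0.923-fold to 1.14-fold.

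Klf15, a late factor that promotes lipid storage and glucose uptake genes, lies on chromosome 6 from 90461043 to 90491803. It had 16 and 15 counts in the Cre libraries, against 23 and 16 in the GFP libraries (1.11 and 1.04 CPM against 1.75 and 1.36 CPM). All Cre values were lower, and the log2 fold change was -0.54 with a standard error of 0.34 (adjusted p = 0.384). At this depth the interval runs from 0.424-fold to 1.11-fold, so both no change and a fall to 0.5 of the GFP level lie within it.

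Gata2 encodes the brake in the list, a zinc finger factor that represses Pparg in preadipocytes, and lies on chromosome 6 from 88193891 to 88207032. It had 70 and 56 counts in the Cre libraries, against 46 and 57 in the GFP libraries (4.36 ± 0.689 CPM with Cre and 4.18 ± 0.957 CPM with GFP, mean ± SD). Cre replicate 1 and GFP replicate 2 were the higher libraries of their groups, and the groups overlapped. The log2 fold change was 0.07 with a standard error of 0.21 (adjusted p = 0.892), and it was below 0 without Cre replicate 1 or without GFP replicate 1.

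**Figure D2:**
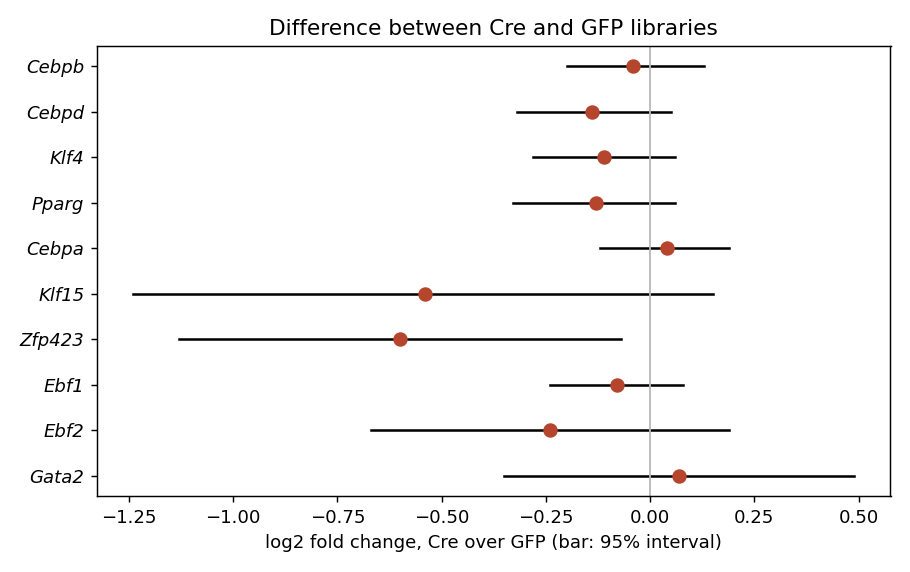
Log2 fold change of Cre over GFP for each factor (points) with its 95% interval (bars), ordered by role from early to late factors, then commitment factors and the brake. The intervals of the 6 abundant factors lie between -0.33 and 0.19, while those of Klf15 and Zfp423 reach -1.24 and -1.13.

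The precision followed the counts. For the 6 factors above 20 CPM (Cebpb, Cebpa, Ebf1, Klf4, Cebpd and Pparg) the standard error of the log2 fold change was 0.08 or 0.09. The widest interval below zero among them was that of Pparg, ending at 0.796-fold, and the widest above zero that of Cebpa, ending at 1.14-fold. For the 4 factors under 5 CPM (Gata2, Ebf2, Zfp423 and Klf15) the standard error lay between 0.21 and 0.34.

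**Figure D3:**
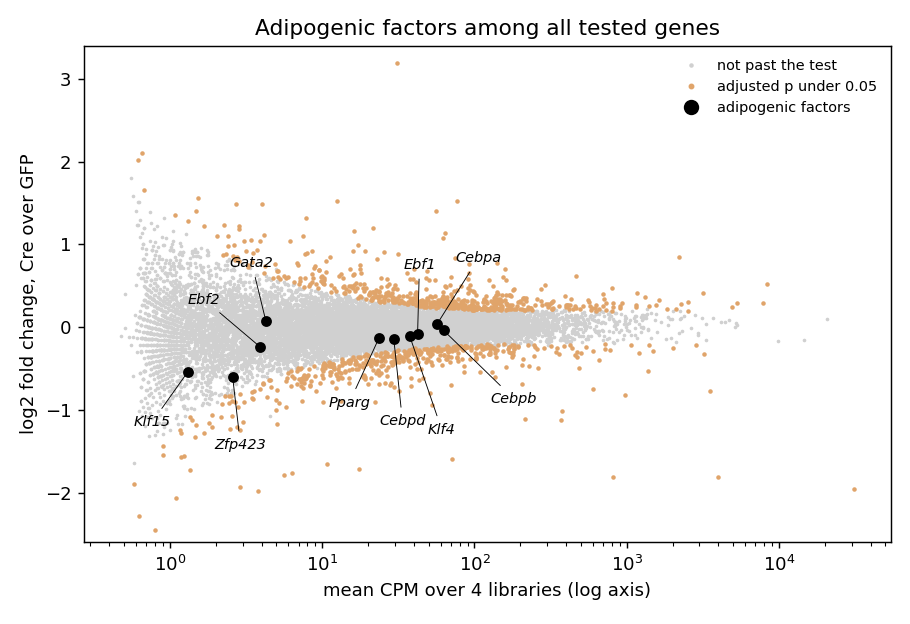
Log2 fold change of Cre over GFP against mean CPM over the 4 libraries (log axis) for 14483 tested genes, with genes past the test in orange and the adipogenic factors in black. The 10 factors lie within the grey band of genes that did not pass, between -0.60 and 0.07.

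Per kilobase of their longest GENCODE M21 transcript, the levels spanned a wide range. Cebpb stood highest at 41.7 CPM per kb over the 4 libraries, followed by Cebpa at 21.7, Klf4 at 12.4 and Pparg at 11.1 CPM per kb. Each of these was above the next in every library. Cebpd at 7.88 and Ebf1 at 7.07 CPM per kb overlapped. Gata2 followed at 1.19 CPM per kb, below every library of Ebf1. Ebf2 at 0.753 CPM per kb was below every library of Gata2 and overlapped with Klf15 at 0.530, which overlapped with Zfp423 at 0.527 CPM per kb. Over all exon bases of each gene the order was the same, with Pparg (7.98 CPM per kb) then close to Cebpd (7.88 CPM per kb). For Cebpd both measures use the same 3746 bases, while its RefSeq span is 2260 bases. A shorter transcript would raise its level per kilobase, so its place relative to Pparg and Klf4 depends on the annotation.

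Within their families the factors were not always the most abundant members. Among the C/EBP genes, Ddit3, which encodes the inhibitory member CHOP, was at 40.6 CPM per kb, near Cebpb. Over all exon bases Ddit3 was at 23.0 CPM per kb, against 41.7 CPM per kb for Cebpb. Of the 6 tested family members Ddit3 alone passed (16.7%, against 6.97% of all tested genes). It was lower in Cre (35.0 ± 3.10 CPM) than in GFP libraries (43.7 ± 0.799 CPM, adjusted p = 0.0150), though 10.9% of its exon bases are shared with overlapping gene entries. Pparg was near Ppard (9.99 CPM per kb) and below its dimer partner Rxra (16.2 CPM per kb). Counted over all exon bases, Pparg (7.98 CPM per kb) was above Ppard (4.95 CPM per kb). Of the 5 tested PPAR and RXR genes 0 passed in edgeR, against 6.97% of all tested genes. At an unadjusted p under 0.05 there were 0, against 20.9%. DESeq2 called 0, against 4.16% of the genes with an adjusted p. Of 14 tested Krüppel-like factor genes, Klf6 was highest at 48.5 CPM per kb. Klf3 at 20.9, Klf2 at 19.8 and Klf13 at 15.3 CPM per kb were also above Klf4 at 12.4 CPM per kb. Klf3 was below Klf4 over all exon bases (9.69 against 12.3 CPM per kb). Klf8 was the member called (7.14%, against 6.97% of all tested genes). It stood at 4.84 ± 0.00457 CPM in Cre and 7.13 ± 0.395 CPM in GFP libraries (adjusted p = 0.0372). In the EBF family, Ebf3 at 3.99 CPM per kb stood between Ebf1 and Ebf2 and was lower in Cre (log2 fold change -0.33, adjusted p = 0.0412). Ebf3 was the only one called of 4 tested (25.0%, against 6.97% of all tested genes). Of the 6 GATA genes only Gata2 and Gata6 were high enough to test, and neither passed, against 6.97% of all tested genes. The count was 0 at an unadjusted p under 0.05 (20.9% of all tested genes) and 0 in DESeq2 (4.16%). Gata3, the second GATA factor known to hold back preadipocytes, had 4 and 8 counts with Cre and 4 and 7 with GFP. With scaling by library size alone, and in DESeq2, none of Ddit3, Klf8 and Ebf3 was called, and DESeq2 gave Klf8 no adjusted p.

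**Figure D4:**
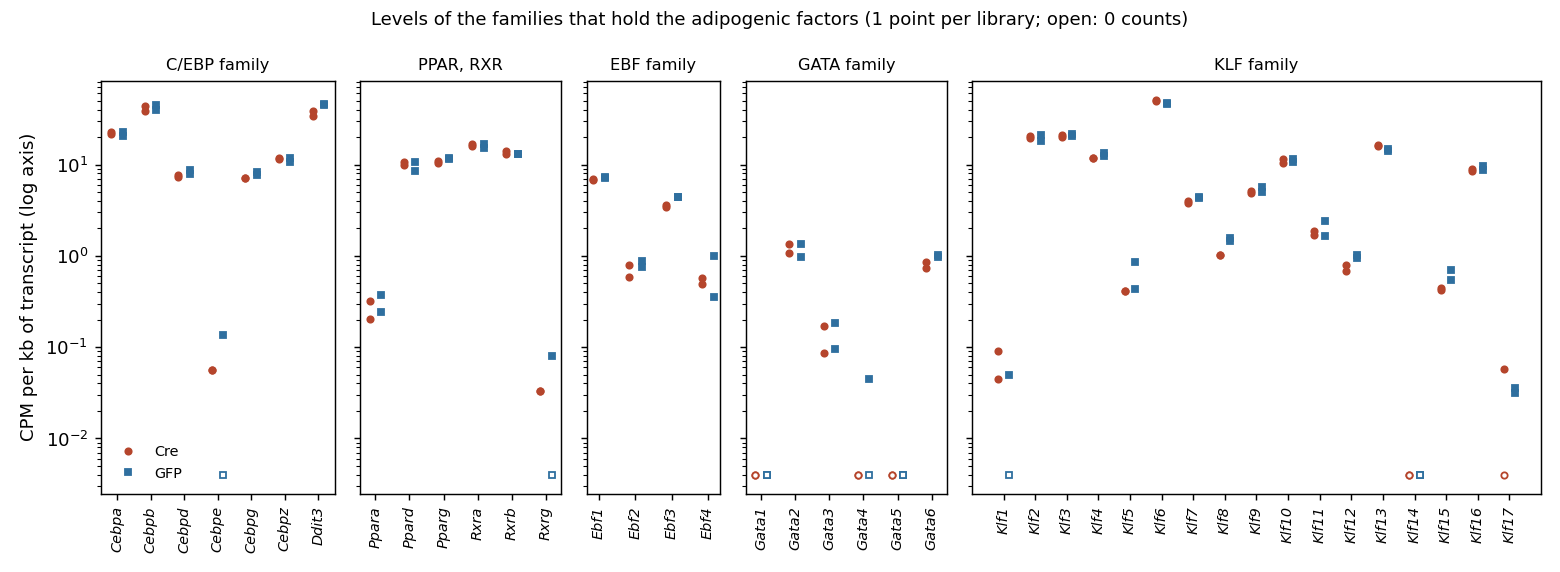
CPM per kb of transcript (log axis) of each gene in the families of the adipogenic factors, with 1 point per library, Cre as circles and GFP as squares, and open symbols at the bottom for libraries with 0 counts. Cebpb at 41.7, Ddit3 at 40.6 and Klf6 at 48.5 CPM per kb are the highest members, and Gata1, Gata5 and Klf14 have 0 counts in the 4 libraries.

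The genes that act around the factors moved in part. Of 21 tested further activators of adipogenesis, 1 fell and 0 rose (4.76%, against 6.97% of all tested genes), with a median log2 fold change of -0.13. The gene was Nfib, a nuclear factor I gene, at 39.5 ± 0.0606 CPM in Cre and 48.8 ± 2.23 CPM in GFP libraries (log2 fold change -0.31, adjusted p = 0.0133). The glucocorticoid receptor gene Nr3c1 (-0.22, adjusted p = 0.0806) and the liver X receptor gene Nr1h3 (0.31, adjusted p = 0.0896) did not pass. Neither scaling by library size alone nor DESeq2 called a gene of this list.

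Of 21 tested further inhibitors, 4 fell and 1 rose (23.8%, against 6.97% of all tested genes), with a median of 0.03. Zfpm2, which encodes FOG-2, a partner protein of GATA factors, had 18.1 and 14.9 CPM in the Cre libraries, against 23.7 and 26.7 CPM in the GFP libraries. Its groups were well apart (log2 fold change -0.61, standard error 0.11, adjusted p = 4.69e-04). Nr2f1, an orphan nuclear receptor gene (-0.83, adjusted p = 0.0452), the Wnt effector gene Tcf7l2 (-0.36, adjusted p = 0.0414) and Ddit3 fell too. Id2, which encodes a helix-loop-helix protein without a DNA-binding region, rose, with 87.4 ± 3.39 CPM in Cre and 68.7 ± 3.87 CPM in GFP libraries (log2 fold change 0.34, adjusted p = 0.00193). Under library size scaling and in DESeq2 the calls were Zfpm2 and Id2.

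Among coregulators that PPAR gamma and the C/EBP proteins use, most of the called genes were lower in Cre. Of 17 tested, 5 fell and 1 rose (35.3%, against 6.97% of all tested genes), with a median of -0.09. The corepressor gene Ncor1 had 165 ± 10.8 CPM in Cre and 198 ± 1.49 CPM in GFP libraries (log2 fold change -0.26, adjusted p = 0.0101). Falls were also called for Nrip1 (-0.32, adjusted p = 0.0112), which encodes the corepressor RIP140, and for the coactivator genes Ncoa1 (-0.43, adjusted p = 0.00849) and Ncoa2 (-0.25, adjusted p = 0.0398). Kmt2c, the gene of an enhancer methyltransferase, fell by 0.31 on the log2 scale (adjusted p = 0.0320). Cited2, a CBP/p300-binding factor gene, rose to 241 ± 0.668 CPM in Cre, against 194 ± 10.5 CPM in GFP libraries (log2 fold change 0.31, adjusted p = 0.00219). The falls depended on scaling: with library size alone 0 fell and Cited2 alone rose, and DESeq2 called Ncor1 and Cited2.

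Downstream, the target genes of PPAR gamma and C/EBP alpha ranged from absent to abundant in both groups. Of 25, 14 passed the low-count filter and 11 did not. The most abundant were Plin2 at 389 CPM with Cre and 327 CPM with GFP, the fatty acid carrier gene Cd36 at 355 and 337 CPM, and the fatty acid synthase gene Fasn at 350 and 306 CPM. Cidea, Cidec, Lep and Retn had 0 counts in the 4 libraries, and Adipoq had 2 and 1 counts with Cre and 0 and 0 with GFP. Of the 14 tested, the lipid droplet gene Plin2 (0.25, adjusted p = 0.0112) and the lipase gene Lpl (0.24, adjusted p = 0.0261) rose and 0 fell (14.3%, against 6.97% of all tested genes), with a median of 0.03. The fatty acid binding protein gene Fabp4 had 16.4 CPM in Cre and 12.8 CPM in GFP libraries (adjusted p = 0.0624). In scaling by library size alone and in DESeq2 the call on Lpl was lost and that on Plin2 was not. Among 8 genes linked to EBF factors in marrow stroma, Cxcl12 (-0.28, adjusted p = 0.00513) and Kitl (-0.53, adjusted p = 0.0134), both niche factor genes, fell and 0 rose (25.0%, against 6.97% of all tested genes). Library size scaling called neither, and DESeq2 called Cxcl12 and gave Kitl no adjusted p.

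**Figure D5:**
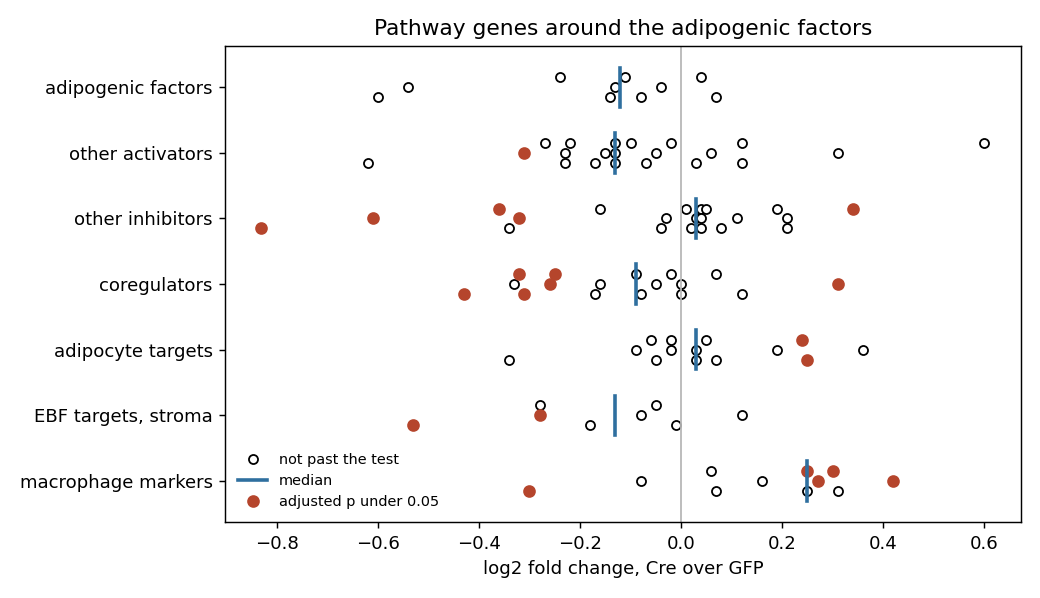
Log2 fold change of Cre over GFP for each tested gene of the lists around the adipogenic factors, with genes past the test as filled red points, other genes as open points and the list median as a blue line. The adipogenic factors hold no red point and have a median of -0.12, and the coregulators hold 6 red points.

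Several of the factors are also made by other cells of a marrow culture, Cebpa, Cebpb, Klf4 and Pparg by macrophages, Ebf1 by B cells and Gata2 by endothelial and mast cells. The labelled stromal cells carried their defining markers, with summed levels of 19425 and 20454 CPM over 10 genes in the Cre libraries and of 15598 and 15472 CPM in the GFP libraries. Most of that sum was collagen, Col1a1 at 9901 CPM with Cre and 6896 CPM with GFP and Col1a2 at 8681 CPM with Cre and 7116 CPM with GFP. Of the 10, Col1a1, Col1a2 and Thy1 rose and Cxcl12 fell (40.0%, against 6.97% of all tested genes). The sum was higher with Cre while 7 of the 10 log2 fold changes were below 0, with a median of -0.09, and Lepr stood at 3.87 CPM with Cre and 4.39 CPM with GFP. Macrophage markers were present too. Their sum over 12 genes was 2417 and 2415 CPM with Cre, against 2052 and 2116 CPM with GFP, most of it Lyz2. Of 11 tested, Lyz2, Cd68, Mrc1 and Tyrobp rose, with log2 fold changes from 0.25 to 0.42, and Adgre1, listed as Emr1, fell (-0.30), which makes 45.5% called, against 6.97% of all tested genes. In bulk RNA, more or fewer cells of a type and more or less RNA per cell cannot be told apart. The part of macrophages in the levels of Cebpa, Cebpb, Klf4 and Pparg was not tested. Nor was their part in the levels of the target genes, Plin2 and Lpl among them. The 7 B cell markers summed to 1.04 and 1.04 CPM with Cre and to 0.609 and 1.02 CPM with GFP, with Ms4a1 at 0 counts throughout. Ebf1 itself averaged 41.1 CPM with Cre and 43.4 CPM with GFP, and the part of B cells in that level was not tested. The 8 endothelial markers summed to 11.1 and 11.3 CPM with Cre and to 13.3 and 12.9 CPM with GFP. Of the 6 tested, 0 passed, against 6.97% of all tested genes. At an unadjusted p under 0.05 in edgeR there was 1, against 20.9% of all tested genes. The 10 mast cell and erythroid markers stayed below 1 CPM in sum in each library, with 6 at 0 counts throughout. The part of endothelial cells in the level of Gata2 was not tested.

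The profile of Pparg over the 4 libraries was nearest, among 10900 genes at or above 5 CPM, to those of Mtss1, Reps1 and Mier1. Distance was Euclidean on log2 CPM centred on each gene's mean, and was 0.011, 0.013 and 0.017. For Zfp423 the nearest were Tenm4 (0.08), Usp18 (0.16) and Klhl23 (0.21). Of these 6 genes, Usp18 (log2 fold change -0.51, adjusted p = 0.00447) and Klhl23 (-0.49, adjusted p = 0.0417) passed the test. With 4 libraries such likeness is shared by many genes and is given as a description.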

How the data were processed

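Libraries for RNA sequencing used a TruSeq RNA kit, as the labels' protocols state. Per gene and library, the authors deposited raw counts as whole numbers. Per the submitters' processing notes, HISAT2 was used with the GRCm38 build. The aligner's version, the counting program, its annotation and its strand setting were not given in the sources used here, and values of genes with overlapping exons are therefore uncertain.

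The quasi-likelihood F-test of edgeR 4.0.16 (R 4.3.3) was run on the deposited counts. Low genes were removed by filterByExpr (minimum count 10, minimum total 15) and libraries were scaled by TMM. Group (Cre or GFP) was the sole term. P-values were adjusted by Benjamini-Hochberg over the 14483 tested genes. The 95% intervals use the standard error, taken as the log2 fold change over the root of F, and the test's degrees of freedom. CPM use TMM-scaled totals, and intervals cover the spread between libraries only. The test was also run on simulated counts with known changes, drawn from edgeR's own fit to these libraries. Such counts follow the test's model, so they cannot show how it fares with technical repeats or a deviating library. Alternatives were DESeq2 1.42.0, limma-voom (limma 3.58.1), other scalings and filters, and each library left out, where a lone library is assumed to vary like the other group.

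The 10 genes and the lists around them were chosen with earlier results of these data known. Named genes are Setd2, the 10 factors, called list members with a mean of at least 1 CPM (up to 6 per list, by smallest p), members of their families and the nearest profiles. Other genes, such as Nr3c1, Nr1h3, Fabp4, Cd36, Fasn, Adipoq, Lepr and those at 0, were named after their values were seen. Exon overlaps and lengths come from GENCODE M21, positions and promoters from RefSeq. Replicates differed by more than counting noise: over the more abundant genes their median chi-square against it was 1.94 with Cre and 2.59 with GFP. This does not tell separate samples from technical repeats.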

Additional observations from a re-analysis of the deposited data

How the results depend on the processing

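Of 130 values of the 10 factors under 13 alternatives, 0 passed the adjusted threshold in edgeR, limma-voom or DESeq2. DESeq2 gave no adjusted p for Zfp423, Klf15, Gata2 and Ebf2. In sign, 5 of the 130 values changed. These were Cebpa without GFP replicate 1 (-0.03), Cebpb without Cre replicate 1 (0.06) and without GFP replicate 1 (0.07), and Gata2 without Cre replicate 1 (-0.09) and without GFP replicate 1 (-0.16). With each library left out in turn, Cebpa ranged from -0.03 to 0.11, Cebpb from -0.13 to 0.07 and Gata2 from -0.16 to 0.32. The number of called factors was 0 in each setting. With a GFP library left out, 0 or 12 genes of the whole table were called, so that count carries little information there. Over all tested genes 1009 were called, against 530 with scaling by library size alone (347 higher, 183 lower), 30 without a low-count filter, 381 in DESeq2 (244 higher, 137 lower) and 477 at an adjusted p of 0.01. Leaving out 1 library gave between 0 and 516 calls, and the causes were not tested. Library size alone moved the median over all tested genes to 0.03. Of the 26 called genes of the lists, 11 were called with library size alone, 12 in DESeq2 and 0 without either GFP library, none with a change of sign. With the replicate number as a block, 829 genes and 0 of the 10 factors were called. Across the tested genes, the difference of replicate 1 from replicate 2 in the Cre group correlated at -0.00886 with that in the GFP group. With a single difference in each group, this value cannot tell whether same-numbered libraries share a culture or an animal. Depth limits Zfp423, Klf15, Ebf2 and Gata2, with at most 70 counts per library.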
